A study of Acropora tenuis with 242 samples.

Results

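Juveniles of the reef-building coral Acropora tenuis raised under the symbiont treatment labelled SED were compared with juveniles raised under the treatment labelled D1, all at Ambient temperature. The comparison holds 60 libraries, 28 of SED and 32 of D1, out of 146 juvenile and 96 larval libraries in the series, and the 29 C1 and 30 SS libraries at the same temperature were used to ask whether those treatments side with D1. The libraries were taken by their labels: juvenile stage, Ambient temperature and symbiont treatment. Each of 10 crosses (BKxBK, CUxCU, CUxDR, CUxSB, DRxCU, DRxDR, DRxSB, LSxCU, LSxLS and SBxSB, from gametes of Great Barrier Reef populations) gave 2 or 3 SED and 3 or 4 D1 libraries, so every cross was raised under both treatments. Expression was measured by tag-based RNA sequencing, in which 1 short fragment per transcript is counted per gene model, and levels are given in CPM, counts per 1000000 of the scaled library total.

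Reef corals house single-celled dinoflagellate algae inside the cells of their gut lining, and the algae pass sugars and other products of photosynthesis to the host. Young Acropora start life without algae and take them up from their surroundings, and hosts are known to change the expression of genes for recognition, digestion, immunity and nutrient transport while a partnership forms. Names of the form C1 and D1 are used in coral research for algal types of the genera Cladocopium and Durusdinium. The labels do not spell out any of the 4 codes, so they are used here only as names. The files do not pair the gene models, which carry identifiers such as Amillepora28811-RA, with gene names, so no function is given for them and only a few models are named for each contrast. The juvenile column names carry the word host, which the larval ones lack. What that step did to algal reads, and how reads of near-identical gene copies were counted, is not stated.

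SED libraries held 160004 to 448569 counts (median 292326) and D1 libraries 183276 to 617578 (median 326344). The mean difference within crosses was -37394.8 counts, with SED lower in 8 of 10 crosses, which did not pass a two-sided permutation test within crosses (p = 0.101). The column names carry a sequencing index number. Within each cross SED came later in that order than D1 in all 84 pairs of libraries of the early block of numbers, so inside a cross the treatment and the index order cannot be told apart. Measured from the mean of the cross, D1 lay at 1.47 ± 6.78 positions (SD, n = 30), SS at -1.73 ± 5.52 (n = 30), C1 at -14.6 ± 7.13 (n = 29) and SED at 15.4 ± 6.02 (n = 28). The other 2 D1 libraries, replicate 1 of CUxDR and replicate 1 of DRxSB, carry index numbers from a separate, late block. All other juvenile libraries of that block are labelled Hot, so the Ambient label of these 2 libraries is in doubt and was not tested. They are used as labelled. The DRxSB one stood apart from the other D1 libraries, so results that rest on these 2 libraries are also given without them. Nothing in the labels ties the replicates to separate rearing vessels. The p-values therefore reflect only how much these libraries vary, part of which may be technical. In RNA of whole juveniles, fewer cells of a type and less RNA per cell cannot be told apart.

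SED and D1 juveniles differed in 1136 of 8954 gene models tested (12.7%), of which 468 were higher in SED (5.23%) and 668 lower (7.46%; edgeR quasi-likelihood test with cross as a term, false discovery rate 0.05). Most differences were small: the median fold difference of the called models was 1.39. The large differences were mostly toward lower levels in SED than in D1. At least 2-fold differences were found in 52 models higher and 102 lower, at least 4-fold in 6 higher and 34 lower, and at least 8-fold in 20 lower and 0 higher. The median log2 difference over all tested models was -0.0035. The scaling of the libraries itself brings this value near 0, so a shift shared by most models could not be seen. Without the 2 late D1 libraries 1167 models were called, and with the index number as a covariate as well, 699. Leaving out the libraries numbered replicate 1 in every group gave 725 models, and those numbered replicate 2 gave 717.

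**Figure D1:**
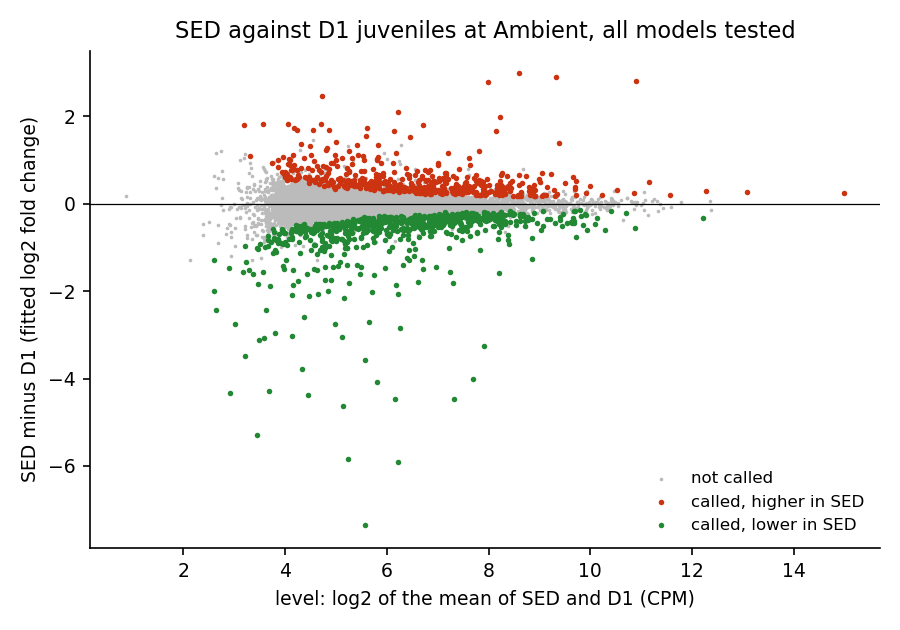
Difference between SED and D1 (vertical axis, fitted log2 fold change) against the level of each gene model (horizontal axis, log2 of the mean CPM of the 2 treatments), for all 8954 models tested. Red points are the 468 models called higher in SED and green points the 668 called lower, and the points farthest from 0 lie below it.

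On the higher side, Amillepora28811-RA had the smallest p among models that separated SED from D1 in every pair of libraries within a cross. Its level ran from 1005 to 6608 CPM in SED (median 3500, n = 28) and from 164.8 to 1178 CPM in D1 (median 403.4, n = 32), and its fitted log2 fold change was 2.82 (SE 0.16, edgeR adjusted p = 6.83e-32). The ranges overlapped only through the late DRxSB library of D1, at 1178 CPM, without which the highest D1 library lay at 994.7 CPM. Within SED, replicate 3 lay below replicate 1 in every cross that had both, as at 1005 against 5204 CPM in CUxCU. The log2 fold change was 2.51 without replicate 1 and 3.15 without replicate 3. Replicate number was not a term of the fit, and this order was not tested. C1 libraries ran from 213.9 to 506.6 CPM (median 280.02), all within the D1 range, and SS libraries from 301.8 to 2133 CPM (median 1240). SS was called against both other treatments, at a log2 level 1.25 (SE 0.15) above D1, while SED lay 1.56 (SE 0.15) above SS.

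Amillepora01102-RA showed the same order. It stood at 440.8 to 2037 CPM in SED (median 1118), at 13.4 to 611.7 CPM in D1 (median 128.1), at 2.42 to 323.1 CPM in C1 (median 44.4) and at 0 to 617.02 CPM in SS (median 306.7). The log2 fold change of SED over D1 was 2.90 (SE 0.25, edgeR adjusted p = 3.4e-18). Both extremes of D1 were the late libraries, and without them D1 ran from 25.99 to 452.2 CPM. In these 2 models SED was the highest treatment, SS was second, D1 was next and C1 was lowest. C1 was called below D1 in both. The log2 difference of C1 from D1 was -0.63 (SE 0.15, edgeR adjusted p = 0.00541) for Amillepora28811-RA. For Amillepora01102-RA it was -1.07 (SE 0.27, edgeR adjusted p = 0.00666).

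On the lower side Amillepora09062-RA was nearly absent from SED. It had 2 counts among 8554456 over the 28 SED libraries, with 26 libraries at 0 and the highest at 3.65 CPM, while D1 libraries held 38.4 to 191.9 CPM (median 85.1) and 1032 counts among 11182476. The rate of counts was 394.7-fold lower in SED, with an exact 95% interval of 109 to 3264-fold that covers counting error only (edgeR adjusted p = 2.1e-42). C1 ran from 54.9 to 199.4 CPM and SS from 33.3 to 299.9 CPM, and none of the D1, C1 or SS libraries reached the SED range. SS was called above D1, by 0.46 on the log2 scale (SE 0.12, edgeR adjusted p = 0.0211).

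Amillepora24890-RA was low rather than absent in SED, at 0 to 56.02 CPM (median 21.3) against 152.9 to 742.1 CPM in D1 (median 378.9). Its log2 fold change was -4.00 (SE 0.18, edgeR adjusted p = 9.91e-40). C1 held 169.6 to 684.6 CPM (median 382.4) and SS 183.5 to 888.1 CPM (median 537.5). The D1 and C1 levels of this model lay close together, with a log2 difference of 0.05 (SE 0.13), and no D1, C1 or SS library overlapped SED.

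**Figure D2:**
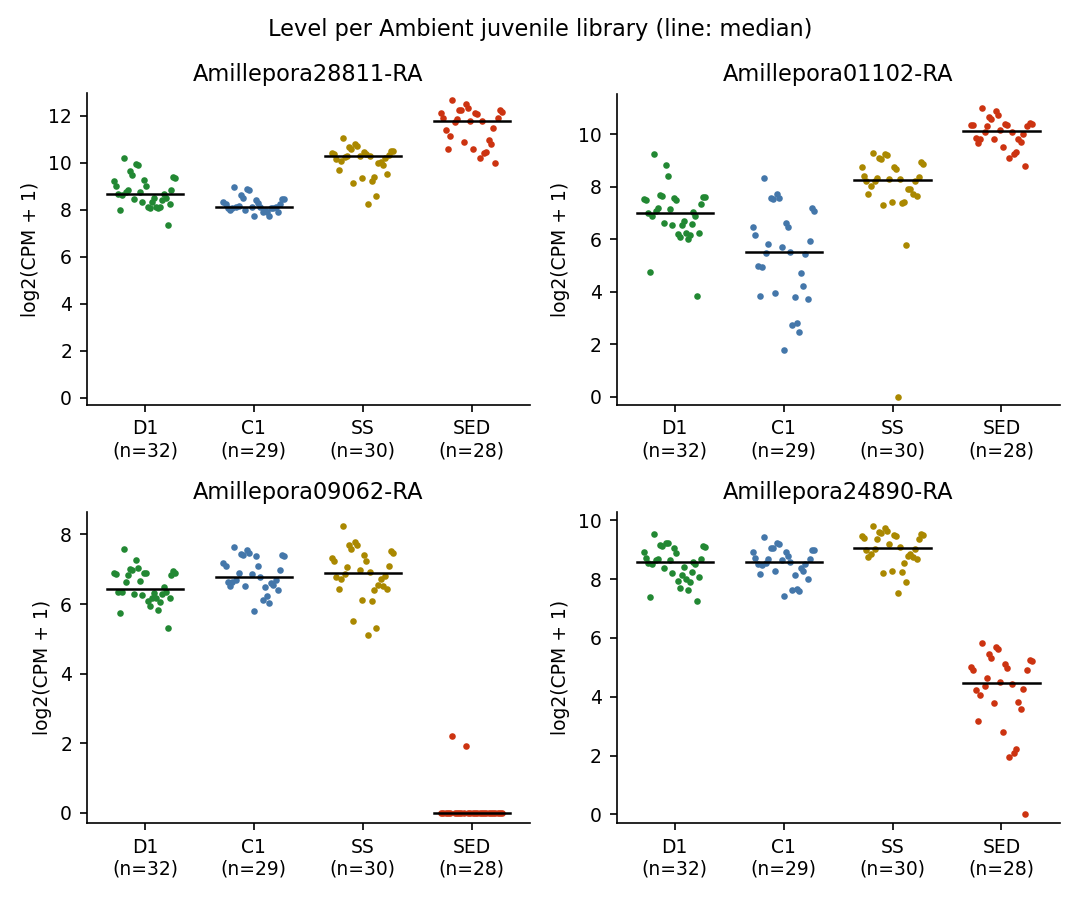
Level of 4 gene models in every Ambient juvenile library (points; vertical axis, log2 of CPM plus 1) under each symbiont treatment (horizontal axis, with the number of libraries), with the median as a line. In the upper 2 models SS lies between SED and the D1 and C1 libraries, and in the lower 2 the 28 SED libraries lie below all others.

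Complete separation was rare and occurred mostly among models lower in SED. There were 90 pairs of a SED and a D1 library from the same cross. Of the 1136 called models 18 differed in the same direction in every pair, 2 of them higher in SED and 16 lower. The same libraries made the calls, so this count is a description, and it was not taken over all tested models. Over all 60 libraries, whatever the cross, 10 of the 8954 tested models had no overlap between the treatments. Of these, 10 were lower in SED and 0 higher. A mean under 1 CPM in SED was found in 4 called models, which stood at 14.7 to 95.4 CPM in D1. Among all 8954 tested models the number was also 4 for SED, and it was 0 for D1. A called model with a mean under 1 CPM in D1 was therefore not possible.

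The called models were found at all levels. Among models with a mean log2 CPM under 5, 8.74% of 2882 were called, among those from 7 to 9, 22.5% of 1428, and at 9 or more 22.4%. The called models of low level had the larger differences, with a median of 0.83 on the log2 scale under 5 and 0.33 at 9 or more. The 468 models higher in SED were chosen by this contrast, and as a description they took 14.0% ± 1.02 of the counts in SED libraries (SD, n = 28) and 10.6% ± 0.963 in D1 (n = 32). The 668 models lower in SED took 8.26% ± 0.356 in SED and 11.4% ± 0.844 in D1. C1 and SS libraries held 9.64% ± 0.845 and 10.9% ± 1.06 of their counts in the first set and 12.3% ± 1.13 and 11.4% ± 0.957 in the second.

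The difference between SED and D1 was shared by the crosses. Each cross was examined with the models called in the other 9 crosses, so its own libraries had no part in the choice. Of those models 73.7% (CUxCU) to 87.7% (SBxSB) differed in the same direction in the left-out cross, against 56.5% to 64.2% of all tested models. The slope of the left-out difference on the difference in the other crosses was 0.673 ± 0.0649 (SD, n = 10 crosses), with the lowest value of 0.562 in CUxCU and the highest of 0.763 in LSxLS. Without their late D1 library the slope of CUxDR went from 0.681 to 0.706 and that of DRxSB from 0.602 to 0.667.

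Whether the difference depended on the cross was tested as an interaction of cross and treatment, which called 2 of 9358 models (0.0214%; edgeR quasi-likelihood F-test, 60 libraries), and 356 (3.80%) had an unadjusted p under 0.05. DESeq2 called 6, and edgeR without a low-count filter called 414, so the count depends on that filter. Within single crosses only 15 (CUxCU) to 76 (CUxDR) of the 9358 models were called, and 0 models were called in opposite directions in 2 crosses. With so few calls per cross, opposite calls had little chance to appear. Their absence therefore says little about agreement between the crosses. A set of 9 models was called within each of the 10 crosses.

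The 2 models with a cross-dependent difference were singled out after their values were seen. Amillepora10026-RA stood at 656.8 and 778.9 CPM in the 2 SED libraries of LSxLS, where D1 averaged 158.5 CPM, and at cross means of 113.1 to 160.9 CPM in SED in the other 9 crosses. Its log2 difference was 2.18 in LSxLS and -0.47 to 0.50 elsewhere (interaction adjusted p = 3.95e-05, edgeR). Amillepora06305-RA stood at 280.8, 445.9 and 550.9 CPM in the SED libraries of LSxCU against a D1 mean of 107.6 CPM, a log2 difference of 1.96, with -0.56 to 0.85 in the other crosses (interaction adjusted p = 0.00466, edgeR). For Amillepora10026-RA, 1 C1 library of LSxLS was also high, at 426.5 CPM. For Amillepora06305-RA, SED libraries of LSxLS (305.8 CPM) and DRxSB (287.7 CPM) lay above the lowest of the 3 LSxCU ones.

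Whether C1 and SS side with D1 was tested against the midpoint of SED and D1, model by model. This contrast is independent of the difference between SED and D1 only where both treatments are measured with equal precision. In models with very few counts in SED they are not. For Amillepora09062-RA the SE was 0.30 for SED against C1 and 0.13 for C1 against D1. In such models the choice by lower levels in SED can itself push C1 and SS toward D1, and the size of this push was not tested. In the 1136 called models C1 was called on the D1 side in 673 (59.2%) and on the SED side in 10 (0.880%), while 453 were undecided (edgeR, false discovery rate 0.05). Over all 8954 tested models the shares were 21.4% on the D1 side and 2.8% on the SED side. A call against the midpoint is easier to reach where SED and D1 lie far apart. The median absolute log2 difference was 0.48 in the called models and 0.15 in all tested models. Here and below, the shares over all tested models are therefore not a like comparison. C1 sided with D1 both in models higher in SED, 54.5% of 468, and in models lower in SED, 62.6% of 668. With the index number as a covariate and without the late D1 libraries, 35.5% of 699 called models had C1 on the D1 side and 25.5% had SS there. With the library total as a covariate the shares were 44.3% and 19.1% of 873. For C1, 428 models (59.03%) were on the D1 side without replicate 1, 328 (45.7%) without replicate 2 and 338 (41.9%) without replicate 3.

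SS sided with D1 less clearly, with 316 models on the D1 side (27.8%), 20 on the SED side (1.76%) and 800 undecided, against 7.4% and 1.16% of all tested models. The D1-side count was 106 (14.8%) without replicate 2, 22.5% of the called models without replicate 3 and 196 (19.5%) without DRxSB. The split by direction was unequal. Among the models lower in SED, SS was called on the D1 side in 37.7% of 668 and on the SED side in 7. Among those higher in SED it was called on the D1 side in 13.7% of 468 and on the SED side in 13. Both C1 and SS were called on the D1 side in 21.0% of the called models, 190 of them lower in SED and 48 higher. Among all 8954 tested models both were called there in 405.

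On a scale with D1 at 0 and SED at 1, the median position of the 1136 models was -0.135 for C1 and 0.110 for SS. For SS the median was 0.231 in the models higher in SED and 0.0285 in those lower. In the 52 models at least 2-fold higher in SED, SS stood at a median of 0.440, and in the 102 at least 2-fold lower at 0.0232. C1 stood at -0.146 and -0.0531 in these 2 sets. The 6 models at least 4-fold higher in SED had median levels of 567.7 CPM in SED, 229.5 CPM in SS, 76.97 CPM in D1 and 31.03 CPM in C1, with C1 called on the D1 side in 6 of 6 and SS called on neither side in any. Of the 34 models at least 4-fold lower in SED, 27 had both C1 and SS called on the D1 side. The number was 405 among all 8954 tested models, most of which have a far smaller gap between SED and D1, so the 2 are not alike. Models this low in SED may also have passed the low-count filter only through the other treatments. Median levels of the 34 models were 4.71 CPM in SED, 48.6 CPM in D1, 55.1 CPM in C1 and 58.5 CPM in SS.

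**Figure D3:**
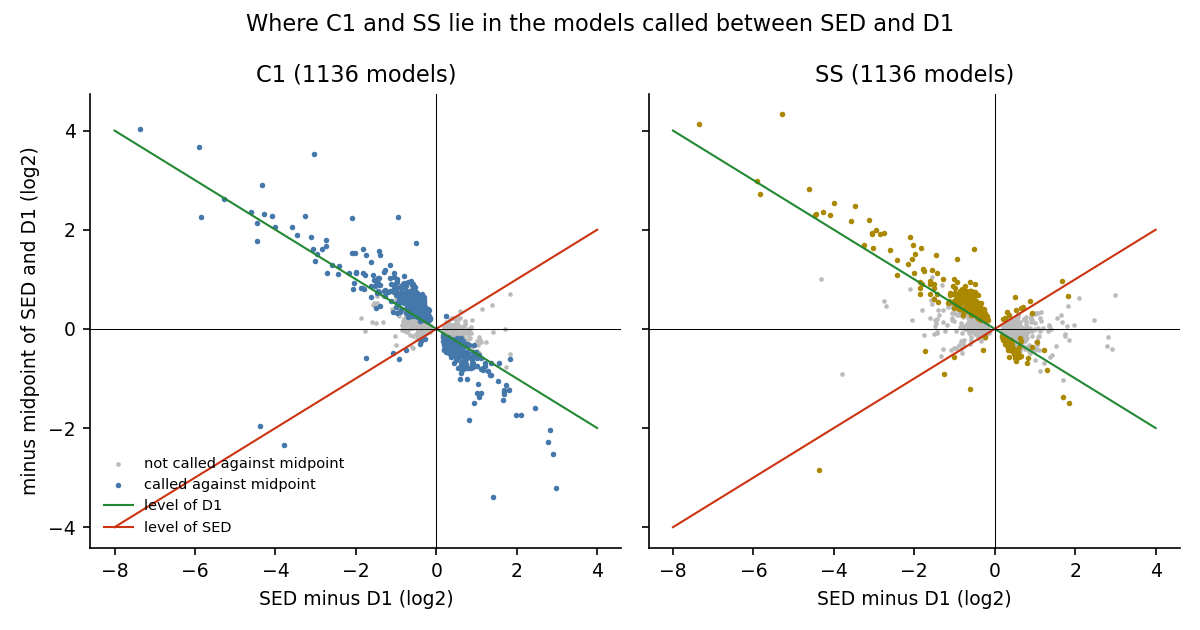
Distance of C1 (left) and SS (right) from the midpoint of SED and D1 (vertical axis, log2) against the difference of SED from D1 (horizontal axis, log2) for the 1136 called models. Coloured points were called against the midpoint; the green line is the level of D1 and the red line that of SED. C1 follows the green line on both sides, while SS follows it for models lower in SED and lies between the lines for many models higher in SED.

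The same was measured library by library. For each cross, the models called in the other 9 crosses and their differences defined an axis, and each library of the left-out cross was placed on it relative to the mean of the 4 treatments of that cross. SED libraries lay at 0.393 to 0.623 (median 0.517) and D1 libraries at -0.279 to 0.100 (median -0.166), where the highest D1 value was the late DRxSB library and the next was -0.0496. C1 libraries lay at -0.475 to -0.0203 (median -0.248) and SS libraries at -0.315 to 0.0904 (median -0.0816). Of the 29 C1, 32 D1 and 30 SS libraries, 0 reached the lowest SED library, so the gap lay between SED and the other 3 treatments.

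**Figure D4:**
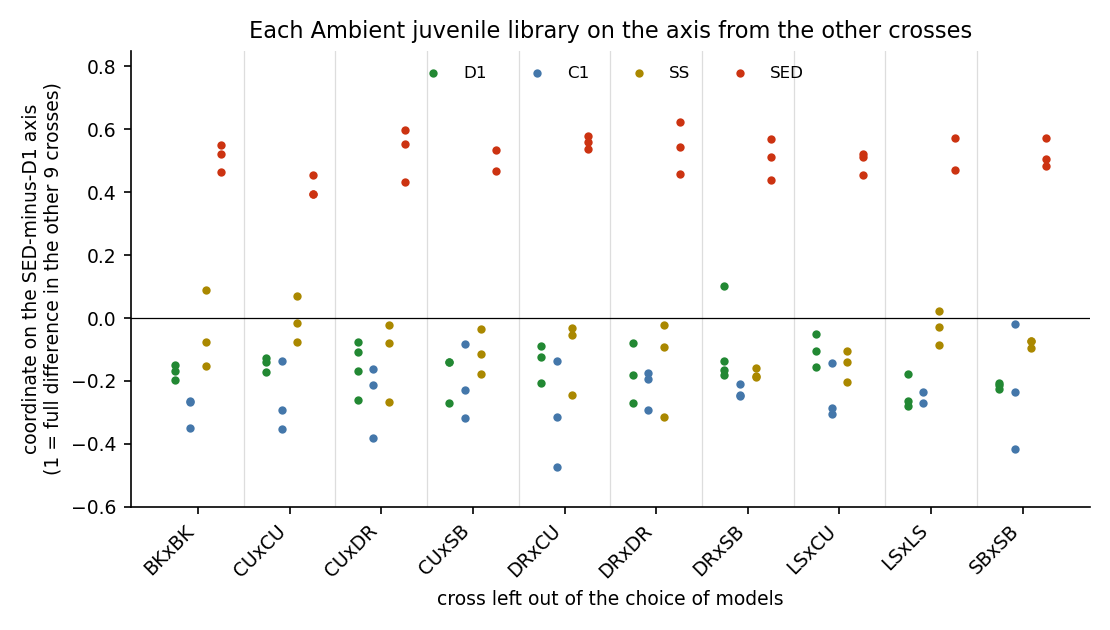
Position of each Ambient juvenile library (point) on the axis from D1 to SED, by cross (horizontal axis). The vertical axis is the coordinate relative to the mean of the 4 treatments of the cross, with 1 the full SED minus D1 difference of the other 9 crosses. All 28 SED libraries lie at 0.393 or higher and all D1, C1 and SS libraries at 0.100 or lower.

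By cross, with D1 at 0 and SED at 1, C1 lay at -0.136 ± 0.0946 (SD, n = 10 crosses) and beyond D1 in 10 of 10 crosses, from -0.241 in DRxCU to -0.0124 in SBxSB. SS lay at 0.0919 ± 0.134, from -0.135 in DRxSB to 0.276 in LSxLS, and was nearer to D1 than to SED in 10 of 10. On the models higher in SED alone, SS lay at 0.396 ± 0.171, from 0.0993 (DRxSB) to 0.672 (CUxCU), and nearer to D1 in 8 of 10 crosses. On the models lower in SED it lay at -0.0149 ± 0.124, and its position on the higher models exceeded that on the lower models in 10 of 10 crosses. C1 lay at -0.238 ± 0.175 on the higher and -0.103 ± 0.0783 on the lower models. Without its late D1 library, DRxSB gave SS positions of -0.0242 over all models and 0.295 over the higher ones, and a C1 position of -0.111 in place of -0.232. Along this axis the treatments ran C1, D1, SS, SED, and in index number they ran C1, SS, D1, SED.

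Direct contrasts between treatments, which share the D1 or the SED libraries with the comparison of SED and D1, are given side by side. SED differed from C1 in the same direction as from D1 in 382 of the 468 higher and 557 of the 668 lower models, where 30% of all tested models were called between SED and C1. SED differed from SS in the same direction in 280 and 478 of them, where 17.3% of all tested models were called. C1 was called against D1 in 50 of the higher models, 12 toward SED and 38 away from it, and in 111 of the lower ones, 29 toward and 82 away, against 6.32% of all tested models. SS was called against D1 in 56 of the higher models, 56 of them toward SED and 0 away, and in 62 of the lower, 36 toward and 26 away, against 2.54% of all tested models.

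Single models departed from the general pattern. Amillepora32533-RA was the clearest case in which C1 and SS both sided with SED. D1 libraries held 8.98 to 92.05 CPM (median 38.0), SED 0 to 7.86 CPM, C1 0 to 8.91 CPM and SS 0 to 7.78 CPM, so no library of the other treatments reached the lowest D1 library. The rate of counts was 25.5-fold lower in SED than in D1 (exact 95% interval 15.02 to 46.9, counting error only), and the distance from the midpoint was -1.97 (SE 0.38, adjusted p = 2.76e-05, edgeR) for C1 and -2.84 (SE 0.42, adjusted p = 1.24e-07) for SS on the log2 scale.

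Amillepora17006-RA was likewise highest in D1, at 2.52 to 376.6 CPM (median 23.7), with medians of 0 CPM in SED, C1 and SS. The highest libraries were at 30.4 CPM in SED, 13.96 CPM in C1 and 249.8 CPM in SS, and each of these lay above the lowest D1 library, so all ranges overlapped. The highest SS value came from 1 DRxCU library, and the next was 8.45 CPM. C1 was called on the SED side, at -2.34 (SE 0.59, edgeR adjusted p = 0.00151), and SS was not, at -0.91 (SE 0.51, adjusted p = 0.293).

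In Amillepora23389-RA, C1 lay far beyond D1. It held 598.5 to 1421 CPM in SED (median 939.3), 353.6 to 919.6 CPM in SS (median 556.4), 28.8 to 1702 CPM in D1 (median 306.9) and 0 to 258.9 CPM in C1 (median 26.1). The D1 libraries were spread widely and overlapped all other treatments, with the late DRxSB library highest and 867.3 CPM the highest without the late ones. Replicate 1 was the highest C1 library in every cross, as in DRxDR at 198.3 CPM against 32.6 and 11.1 CPM. This order by replicate number was not tested. SED exceeded D1 by 1.40 on the log2 scale (SE 0.25, edgeR adjusted p = 1.22e-05), and the log2 distance of C1 from the midpoint was -3.39 (SE 0.28).

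Amillepora22122-RA was the only model higher in SED with C1 called on the SED side. Its difference between SED and D1 was small, 0.23 on the log2 scale (SE 0.08, edgeR adjusted p = 0.0481), with 88.8 to 227.04 CPM in SED, 93.8 to 170.6 CPM in D1 and 77.3 to 270.9 CPM in C1. The 3 ranges overlapped broadly, and the difference of SED from D1 did not pass a false discovery rate of 0.05 in 16 of 28 alternatives. The stricter rate of 0.01 and the 2-fold minimum, which reuse the main fit, are not among those 16, and the difference met neither.

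The last 3 models marked the extremes of SS. For Amillepora04293-RA only 2 counts were found in SED, a 102.1-fold lower rate than in D1 (exact 95% interval 27.996 to 847.6), with 0 to 128.4 CPM in D1, 3.86 to 72.6 CPM in C1 and 3.63 to 298.1 CPM in SS. SS was the highest treatment there, at 4.33 above the midpoint (SE 0.37), and 6 of the 32 D1 libraries held no count. In Amillepora20734-RA SS stood with SED, at medians of 30.04 and 27.6 CPM against 7.18 CPM in D1 and 4.84 CPM in C1, and the SS libraries lay 0.98 above the midpoint (SE 0.18, edgeR adjusted p = 3.26e-05). In Amillepora19310-RA SED was highest at a median of 12.04 CPM, with 3.09 CPM in D1, 2.79 CPM in C1 and 0 CPM in SS, and 17 of 30 SS libraries held no count. Its counts were low throughout, at 157 over the 28 SED libraries, 5 of them at 0, and 55 over the 32 D1 libraries, 11 of them at 0. It was among the tested models in only 19 of 28 alternatives.

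SED and D1 libraries at Hot, which share no library with the Ambient comparison, were available together in 4 crosses (CUxDR, DRxSB, LSxLS and SBxSB; 8 SED and 6 D1). Of the models lower in SED at Ambient, 492 of 668 (73.7%) were also lower at Hot, and of the 102 at least 2-fold lower, 90 (88.2%), against 56.6% of all tested models with equal signs. The 20 models at least 8-fold lower in SED were lower at Hot in 20 of 20. Of the models higher in SED, 58.5% of 468 were also higher at Hot, with a median log2 difference of 0.08 against 0.46 at Ambient. Measured as a slope on the models and differences of the other 9 crosses at Ambient, the models higher in SED gave 0.541 to 0.911 at Ambient and -0.111 to 0.321 at Hot, and the lower ones 0.624 to 0.727 at Ambient and 0.368 to 0.562 at Hot. The slope was lower at Hot than at Ambient in each of the 4 crosses in both sets, and this difference was not tested. Of the Hot libraries, 7 of 8 SED and 4 of 6 D1 had late index numbers, whose part in this was not tested.

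**Figure D5:**
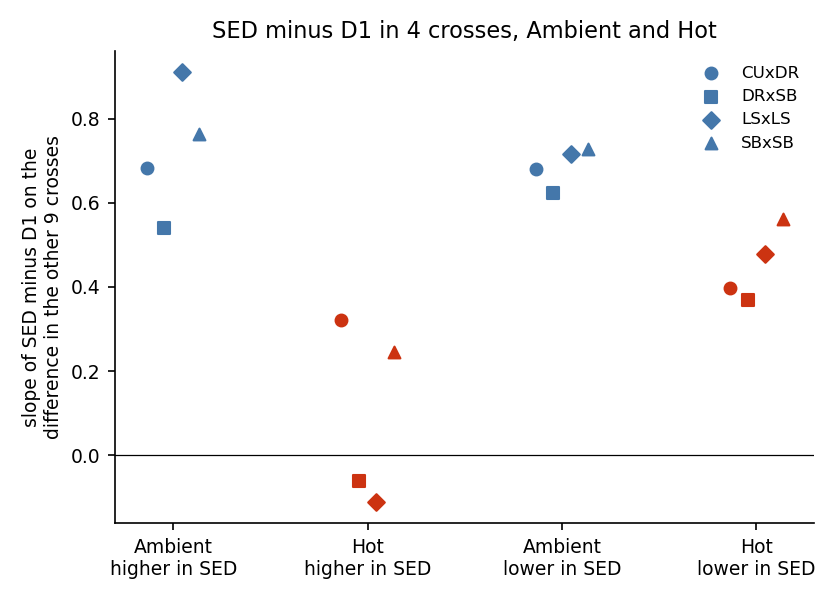
Slope of the SED minus D1 difference in each of 4 crosses (symbols) on the difference in the other 9 crosses at Ambient (vertical axis), for models higher and lower in SED, at Ambient (blue) and Hot (red). The lower models keep slopes of 0.368 to 0.562 at Hot, and the higher models range from -0.111 to 0.321.

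The leading models differed in this respect too. Amillepora09062-RA held 0 to 3.29 CPM in the 8 Hot SED libraries and 43.01 to 85.5 CPM in the 6 Hot D1 libraries, and Amillepora24890-RA 1.82 to 29.6 against 180.2 to 378.7 CPM, with no overlap. Amillepora01102-RA ran from 327.2 to 1663 CPM in Hot SED and from 111.7 to 565.7 CPM in Hot D1. Amillepora28811-RA overlapped widely at Hot, with 365.4 to 1897 CPM in SED and 368.97 to 1100 CPM in D1. In 33 Ambient larval libraries, which are in a separate table scaled on its own, Amillepora09062-RA stood at 0 to 2.70 CPM (median 0) and Amillepora24890-RA at 112.4 to 385.5 CPM (median 199.5). Among the 34 models at least 4-fold lower in SED, 6 (17.6%) had a larval mean under 1 CPM, against 0.625% of all tested models. At 2-fold or more the shares were 5.77% of the 52 models higher in SED and 6.86% of the 102 lower in SED.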

How the data were processed

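The authors deposited raw read counts per gene model, 1 table per life stage. The submitters' processing notes name Bowtie2 2.2.9, and RNA was extracted with an RNAqueous kit, per the labels' protocols. Per the file headers, juvenile columns carry the words trim and host and larval ones trim alone, which marks the juvenile counts as host alignments. How host reads were set apart, how they were counted, against which reference, and whether duplicates were removed is not given in the sources used here. Counts were used as deposited.

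Columns were matched to samples by title. The Ambient juvenile libraries were fitted with edgeR 4.0.16 in R 4.3.3 (trimmed mean of M-values, filterByExpr, quasi-likelihood test) with cross and symbiont as terms, which left 8954 of 25349 models. Calls used a false discovery rate of 0.05 (Benjamini-Hochberg, all models tested). C1 and SS were tested against the mean of SED and D1 in the same fit. The interaction of cross and treatment used the 60 SED and D1 libraries. Scripts were tested on simulated data. CPM values use 1 scale for all 146 juvenile libraries, and log2 CPM a prior count of 2. A rate ratio of summed counts replaces the fitted fold where a group held under 25 counts. The 62 replicate pairs of SED or D1 libraries all differed by more than counting noise, with chi-square values of 2.22 to 9.46 per degree of freedom.

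Named models follow a rule. For SED against D1 they are the 2 per direction with the smallest p among called models whose mean log2 CPM reached 3 and which had the same direction in every pair of libraries within a cross. For C1 and SS they are the called models farthest from the midpoint on each side. The comparison, rules and lists were chosen with earlier results of these data known. Alternatives were DESeq2 1.42.0, limma 3.58.1, other scalings, filters, thresholds, covariates, summed or thinned counts, and left-out crosses or replicates. Leaving out the late D1 libraries and using the library total as a covariate were added after the data were seen.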

Additional observations from a re-analysis of the deposited data

Results flagged for a closer look

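Amillepora10026-RA differed between crosses in its difference of SED from D1 (interaction adjusted p = 3.95e-05, edgeR), and its log2 difference in LSxLS, 2.18, stood far from those of the other 9 crosses. Amillepora06305-RA also differed between crosses (interaction adjusted p = 0.00466, edgeR), with its largest difference, 1.96 on the log2 scale, in LSxCU.

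Of 21 groups of 4 to 10 values examined for a value far from the rest, 4 had one. Chance gives about 1 in 20 only for independent groups fixed beforehand. Some of these groups held models picked from the same data, and the same libraries entered several groups. The count therefore cannot be read as an excess over chance. Among the 4 D1 libraries of DRxSB, replicate 1 stood apart with a coordinate of 0.100 on the SED-minus-D1 axis and with 1178 CPM of Amillepora28811-RA. It is 1 of the 2 Ambient D1 libraries with late index numbers, a block whose other juvenile libraries are labelled Hot, and the part of the block or of its temperature label in these values was not tested. Among the 4 D1 libraries of CUxDR, replicate 2 stood apart with 268.4 CPM of Amillepora28811-RA, the lowest of the 4.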

How the results depend on the processing

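The count of models called between SED and D1, 1136, stayed within 1.5 times that value in 22 of 28 alternatives. It was 685 with libraries thinned to 158481 counts, 598 at a false discovery rate of 0.01, 154 with a 2-fold minimum, and 699 with the index covariate and no late D1 libraries, the last an alternative chosen after seeing the data. Leaving out 1 cross gave 883 to 1129, and leaving out 1 replicate number gave 717 to 1124, with 725 without replicate 1 and 717 without replicate 2. In the same 4 alternatives the share of called models with C1 on the D1 side (59.2%) was 55.2%, 60.03%, 76.6% and 35.5%, and that of SS (27.8%) was 25.3%, 25.8%, 40.9% and 25.5%. With the library total as a covariate, also added later, the shares were 44.3% and 19.1%. Over left-out crosses and replicates C1 ranged from 41.9% (without replicate 3; 45.7% without replicate 2) to 59.7% (without CUxSB), and SS from 14.8% (without replicate 2; 19.5% without DRxSB) to 35.03% (without replicate 1). As counts, both moved by over 1.5 times under thinning, the stricter rate, the 2-fold minimum and both covariate settings named here, and C1 went from 673 to 328 and SS from 316 to 106 models without replicate 2. C1 was on the SED side in 1 to 17 models and SS in 5 to 31 over 26 alternatives. The median position of C1 was -0.0251 without replicate 2 and -0.0296 without replicate 3. The interaction gave 6 models with DESeq2, 414 without a low-count filter, and 1 to 3 with a cross left out, 1 without LSxCU and 1 without LSxLS. For these moves the cause was not tested. The 4 models named for SED against D1 stayed called in all 28 alternatives. No paired analysis was possible because the juvenile titles give no replicate numbers, which here follow accession order. Low totals limit the precision of models at low CPM.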
